A study of Mus musculus with 1989 samples.

Results

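The Gimap genes encode the GTPases of immunity-associated proteins, a family of GTP-binding proteins that share the AIG1-type GTPase domain and are used mainly by lymphocytes. Their rows were taken by name from a table of single-cell transcriptomes of mouse thymocytes, where 8 of 8846 genes were members (Gimap1, Gimap3, Gimap4, Gimap5, Gimap6, Gimap7, Gimap8 and Gimap9). The open chromatin over the cluster was taken by position from a table of single-cell ATAC-seq (accessibility read with a transposase). There 88 of 138317 peaks overlapped the window from 10 kb before the first to 10 kb after the last Gimap gene. The thymocytes came from C57BL/6 mice labelled as male and 7 weeks old, with no genotype or treatment in any group. The transcriptomes were 1 droplet library of thymus cells (1993 cells). The ATAC-seq cells were total thymocytes (1084 cells used) and sorted cells labelled DN (CD4- CD8- double-negative, 182 cells), DP (double-positive, 125 cells), CD4 (119 cells) and CD8 (116 cells). No source used here ties a cell to an animal, so each library or sort was taken as 1 sample, and all values below describe these samples without a replicate test.

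Members of the family sit in the membranes of organelles or in the cytosol of T and B cells, and several of them are required for lymphocytes to survive. Loss of Gimap5 leaves rodents with few peripheral T cells, and Gimap1 is needed to keep mature T and B cells alive. In the thymus, double-positive cells live for a short time unless they are positively selected, and the survival program changes as they become single-positive cells, which is why a family with this role is of interest along the order DN, DP and SP.

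All members lie next to one another on chromosome 6 of GRCm38, between the start of Gimap8 at 48647234 and the start of Gimap3 at 48770851. Gimap8 (chr6:48647234-48660875), Gimap9 (chr6:48676129-48679114), Gimap4 (chr6:48684549-48692060), Gimap7 (chr6:48718621-48724636), Gimap1 (chr6:48739054-48743795) and Gimap5 (chr6:48746197-48754210) run on the plus strand. Gimap6 (chr6:48701582-48708225) and Gimap3 (chr6:48764464-48770851) run on the minus strand. The transcripts are distinct at the 3′ end that the droplet chemistry reads, since the longest run of bases shared by any pair of members within their last 500 bases was 11 bases. Gimap3 and Gimap5, the closest relatives, shared an exact run of 140 bases elsewhere in their transcripts.

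The sequences below show the control regions that the results turn on. The promoters (250 bases before to 50 bases after the start, RefSeq, GRCm38.p6) are those of Gimap4 and Gimap3, whose transcripts were in few DPre-like and in more SP-like cells and whose start peaks had few or no counts in DP sorted cells, of Gimap6, which was detected at all stages and was higher after selection, and of Gimap1 and Gimap9, which were in similar shares of DPre-like and SP-like cells. Capitals mark TGTGGT (the core that RUNX factors bind), CCACCC (bound by KLF factors) and AGGAAGT (bound by ETS factors), each on either strand, and no marked matches overlap.
Gimap4 promoter, chr6:48684328-48684627, plus strand: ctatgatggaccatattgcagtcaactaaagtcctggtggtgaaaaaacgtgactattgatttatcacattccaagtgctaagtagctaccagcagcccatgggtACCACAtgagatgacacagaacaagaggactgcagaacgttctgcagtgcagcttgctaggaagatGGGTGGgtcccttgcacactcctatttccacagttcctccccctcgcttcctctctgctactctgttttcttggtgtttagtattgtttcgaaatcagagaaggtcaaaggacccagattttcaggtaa
Gimap3 promoter, chr6:48770802-48771101, minus strand: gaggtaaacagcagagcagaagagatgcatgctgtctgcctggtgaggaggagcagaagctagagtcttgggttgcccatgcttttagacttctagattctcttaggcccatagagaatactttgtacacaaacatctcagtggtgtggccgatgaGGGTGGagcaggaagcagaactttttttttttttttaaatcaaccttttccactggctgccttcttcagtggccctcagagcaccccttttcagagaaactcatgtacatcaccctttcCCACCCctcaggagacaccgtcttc
Gimap6 promoter, chr6:48708195-48708494, minus strand: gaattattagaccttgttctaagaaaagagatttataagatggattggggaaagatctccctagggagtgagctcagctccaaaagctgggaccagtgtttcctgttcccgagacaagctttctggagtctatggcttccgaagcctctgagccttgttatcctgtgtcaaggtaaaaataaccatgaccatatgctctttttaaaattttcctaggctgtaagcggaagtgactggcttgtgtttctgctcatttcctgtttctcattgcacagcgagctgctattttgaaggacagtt
Gimap1 promoter, chr6:48738797-48739096, plus strand: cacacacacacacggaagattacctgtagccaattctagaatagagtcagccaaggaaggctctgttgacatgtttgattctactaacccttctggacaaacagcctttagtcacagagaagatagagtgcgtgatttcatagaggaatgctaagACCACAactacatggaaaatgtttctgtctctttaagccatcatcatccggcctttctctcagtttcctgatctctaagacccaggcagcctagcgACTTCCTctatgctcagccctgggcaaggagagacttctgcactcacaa
Gimap9 promoter, chr6:48675885-48676184, plus strand: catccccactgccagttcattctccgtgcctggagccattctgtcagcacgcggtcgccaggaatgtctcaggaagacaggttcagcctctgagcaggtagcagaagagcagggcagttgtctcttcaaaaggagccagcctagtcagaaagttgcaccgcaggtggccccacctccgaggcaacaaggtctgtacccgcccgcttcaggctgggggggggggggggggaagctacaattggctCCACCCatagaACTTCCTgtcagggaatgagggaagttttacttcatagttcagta
Outside the promoters, the middle 300 bases are shown for the pair of peaks between Gimap9 and Gimap4 that were more open in SP than in DP sorted cells when all cells of a sort were summed, and for the highest peak of the cluster, upstream of Gimap1.
Peak between Gimap9 and Gimap4, chr6:48679778-48680077, plus strand: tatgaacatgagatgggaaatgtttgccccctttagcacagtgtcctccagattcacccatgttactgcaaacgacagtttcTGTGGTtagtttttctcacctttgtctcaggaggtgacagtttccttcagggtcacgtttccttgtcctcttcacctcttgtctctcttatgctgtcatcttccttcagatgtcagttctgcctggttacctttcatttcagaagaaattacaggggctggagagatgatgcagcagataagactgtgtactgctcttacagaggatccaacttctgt
Peak upstream of Gimap4, chr6:48680493-48680792, plus strand: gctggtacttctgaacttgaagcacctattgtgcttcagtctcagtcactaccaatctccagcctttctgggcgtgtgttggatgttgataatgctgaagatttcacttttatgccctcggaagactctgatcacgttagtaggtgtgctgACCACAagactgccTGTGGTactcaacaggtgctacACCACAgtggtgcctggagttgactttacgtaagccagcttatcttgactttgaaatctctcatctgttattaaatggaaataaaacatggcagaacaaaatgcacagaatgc
Peak upstream of Gimap1, chr6:48732932-48733231, plus strand: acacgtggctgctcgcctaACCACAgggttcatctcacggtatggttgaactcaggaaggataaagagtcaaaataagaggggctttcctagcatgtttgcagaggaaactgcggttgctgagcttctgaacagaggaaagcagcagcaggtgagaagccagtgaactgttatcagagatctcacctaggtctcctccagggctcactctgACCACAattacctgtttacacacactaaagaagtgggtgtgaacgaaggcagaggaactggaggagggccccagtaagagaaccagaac
Among the 9 Gimap promoters of the table, Gimap4, Gimap7 and Gimap1 held TGTGGT, at 145, 79 and 95 bases before their starts, against 16.8% of all 32851 promoters. CCACCC was in those of Gimap9, Gimap4, Gimap5, Gimap3 and 1 of the pair of Gimap8 promoters, against 31.5% of all promoters. AGGAAGT was in those of Gimap9, Gimap1 and Gimap5, against 9.35%. Gimap6 had none of these letters in its window. Only these exact letters were searched, so near spellings, such as cggaagt in the Gimap6 window, were not counted. The peak upstream of Gimap4 held TGTGGT at 3 places, a number reached or passed by 64 of the 7488 peaks of chromosome 6 (0.855%). At least 1 match was in 25 of the 88 peaks of the Gimap cluster (28.4%) and in 27.8% of the peaks of chromosome 6, so that the cluster was at the background. The neighboring peak between Gimap9 and Gimap4 held it at 1 place. The peak upstream of Gimap1 held it at 2 places. A match of letters is a description of the sequence and not evidence that a factor binds there.

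The cells of the RNA library were grouped anew, with the Gimap genes left out of the clustering, and 16 of 17 clusters were named from marker genes as DN-like (78 cells), ISP-like (immature single-positive, 165), DPbla-like (DP blasts, 338), DPre-like (DP cells at the stage of TCRα rearrangement, 495), DPsel-like (DP cells in selection, 330), CD4sp-like (154), CD8sp-like (143), agonist-selected-like (74), NCL-like (nonconventional lymphocytes, 30) and APC-like (antigen-presenting cells, 35). A further cluster of 151 mostly cycling cells was left unnamed. Every measured marker was above its mean over all cells in its own class, except in the CD8sp-like class, where 5 of 7 were. The cells differed in depth, from a median of 1921 expression steps in agonist-selected-like cells to 10070 in ISP-like cells, a step being the place of a value when the different values found in a cell are put in order, which stands in for a transcript count. Each cell was therefore thinned at random to 1300 steps before shares were compared, and the share at full depth is given beside it. Intervals are exact 95% binomial or Poisson intervals and cover counting error only. As a measure of free RNA, Cd74, the invariant chain of antigen-presenting cells, was seen in 97.1% of APC-like cells (median 2412 steps) and 10.1% of DPre-like cells (median 1999 steps) at equal depth, and the cytotoxic granule gene Nkg7 in 96.7% of NCL-like cells and 1.82% of DPre-like cells.

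The family divided by its pattern along the stages. Gimap4 was in few DPre-like cells, in more DPsel-like cells, whose clusters differed, and in still more SP-like cells. Gimap3, Gimap5, Gimap7 and Gimap8 were in few DPre-like cells and had higher shares in SP-like cells. Gimap6 was in many DPre-like cells and in still more afterwards. Gimap1 and Gimap9 were in similar shares of DPre-like, DPsel-like and SP-like cells. SP-like cells are the CD4sp-like and CD8sp-like cells together (297 cells). At equal depth, 6 of 8 members had an interval in SP-like cells that lay above the one in DPre-like cells, and Gimap1 and Gimap9 did not. Of the 6, Gimap7 (14.8%) and Gimap8 (13.1%) were not above the share of Cd74 in SP-like cells (15.2%). Gimap5 was at 20.9% (16.4% to 25.9%) there, but in the CD4sp-like class it was not above Cd74 (16.9% against 17.5%). The part of free RNA in these shares was not tested. The same interval criterion held for 6.95% of the 8746 genes compared, and at full depth for 12.2% of them and the same number of members.

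**Figure D1:**
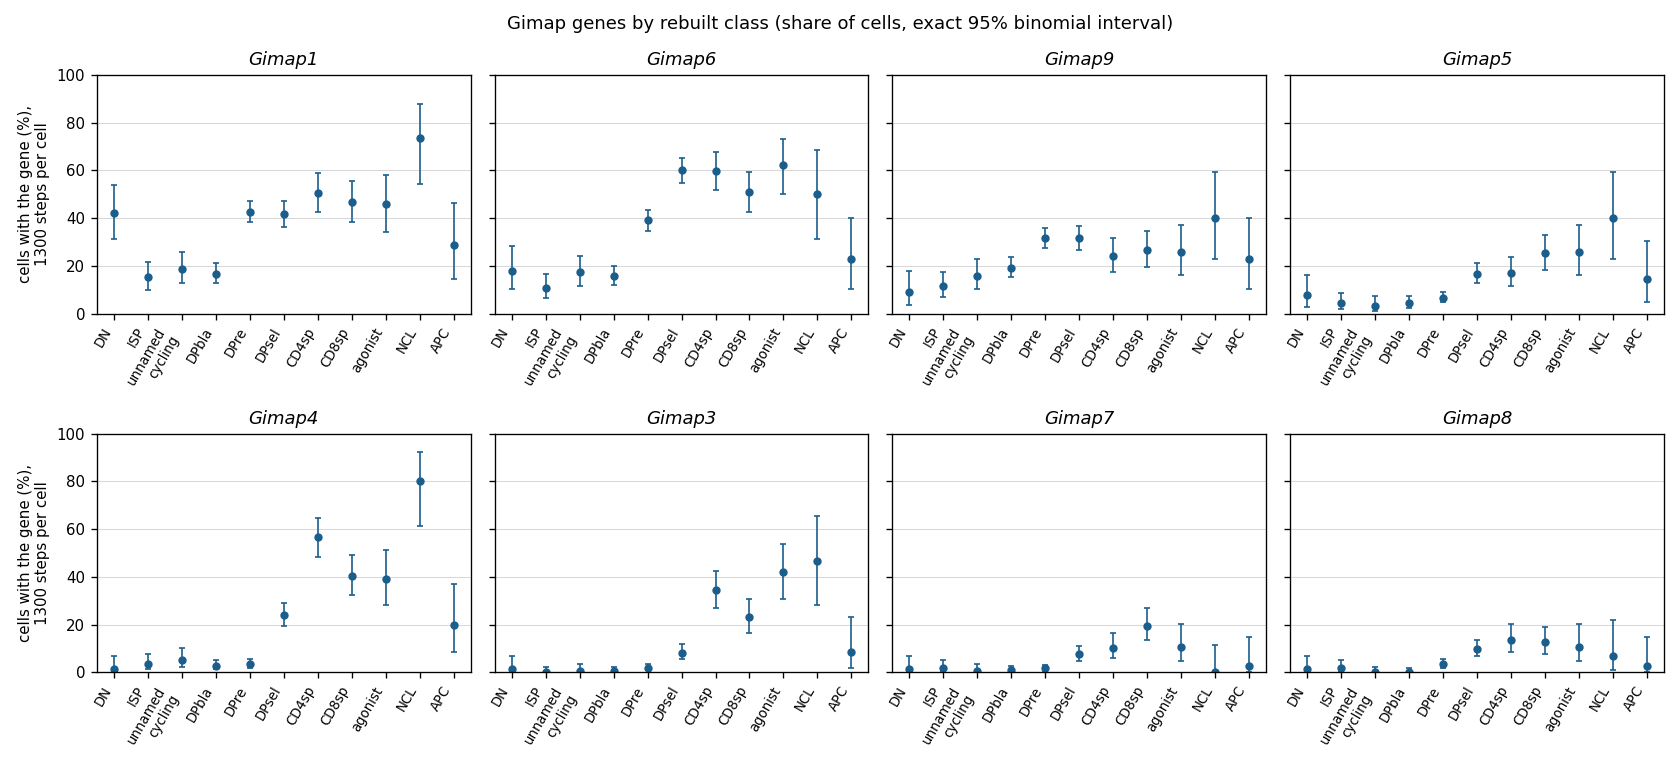
Share of cells with each Gimap gene (%) in each class at 1300 steps per cell, with the exact 95% binomial interval. Gimap4 stood at 3.43% in DPre-like cells and 56.5% in CD4sp-like cells, while Gimap1 stood at 42.6% and 50.6%.

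Gimap4, a member of T cells that has been tied to their apoptosis, showed the widest range. It was detected in 3.43% of DPre-like cells at equal depth (95% interval 2.01% to 5.44%; 5.05% at full depth). The share was 23.9% in DPsel-like cells (19.4% to 28.9%; 31.5% at full depth). In SP-like cells it was higher again, in the CD4sp-like at 56.5% (48.3% to 64.5%; 72.1% at full depth) and in the CD8sp-like at 40.6% (32.4% to 49.1%; 67.8% at full depth). The intervals of DPre-like, DPsel-like and both SP-like classes did not overlap, and those of the CD4sp-like and CD8sp-like classes did. The DPsel-like class joined a pair of clusters with Gimap4 at 3.68% and 43.7%. The interval of the latter cluster (36.1% to 51.6%) overlapped those of both SP-like classes. NCL-like cells carried Gimap4 most often, at 80.0% (61.4% to 92.3%; 86.7% at full depth). Agonist-selected-like cells had it at 39.2% (28.0% to 51.2%; 52.7% at full depth). Earlier cells were low, with 1.28% of DN-like, 3.64% of ISP-like, 5.30% of unnamed cycling and 2.66% of DPbla-like cells (7.69%, 17.0%, 9.27% and 8.88% at full depth). DPre-like cells averaged 0.05 ± 0.22 on the log2 scale (mean ± SD between cells), the DPsel-like 0.50 ± 0.87, the CD4sp-like class 1.17 ± 1.02, the CD8sp-like class 0.90 ± 0.85 and the NCL-like 1.66 ± 1.01. APC-like cells showed Gimap4 in 20.0% (7 cells) and the T cell receptor subunit Cd3e in 22.9% at equal depth, and the part of free RNA or doublets in that share was not tested.

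Gimap3, a relative of Gimap5 found on membranes of the endoplasmic reticulum, was in fewer cells than Gimap4 in each class from DPre-like to SP-like. Its share at equal depth was 1.82% in DPre-like cells (0.835% to 3.42%; 3.64% at full depth) and 8.18% in DPsel-like cells (5.46% to 11.7%; 12.1% at full depth). It was 34.4% in CD4sp-like cells (27.0% to 42.5%; 46.8% at full depth) and 23.1% in CD8sp-like cells (16.4% to 30.9%; 43.4% at full depth). The DPre-like interval, the DPsel-like interval and those of both SP-like classes lay apart, and the latter pair overlapped. Agonist-selected-like cells had Gimap3 in 41.9% (30.5% to 53.9%; 54.1% at full depth) and NCL-like cells in 46.7% (28.3% to 65.7%; 63.3% at full depth). At equal depth it was seen in 0 of 165 ISP-like cells (exact upper limit 2.21% for cells with a step at this depth; 13 cells or 7.88% at full depth), against 1.28% of DN-like, 0.662% of unnamed and 0.592% of DPbla-like cells. On the log2 scale DPre-like cells averaged 0.03 ± 0.18 (SD between cells), the DPsel-like 0.15 ± 0.43, the CD4sp-like class 0.61 ± 0.82 and the CD8sp-like class 0.49 ± 0.68.

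Gimap5, the lysosomal member whose loss causes lymphopenia, was in similar shares of DPsel-like and CD4sp-like cells. Its share at equal depth was 6.67% in DPre-like (4.63% to 9.24%; 10.7% at full depth) and 16.7% in DPsel-like cells (12.8% to 21.1%; 27.9% at full depth). It was 16.9% in CD4sp-like (11.3% to 23.8%; 26.6% at full depth) and 25.2% in CD8sp-like cells (18.3% to 33.1%; 46.2% at full depth). Only the DPre-like interval lay apart from the other 3 in this sequence. Agonist-selected-like cells reached 25.7% and NCL-like cells 40.0% (44.6% and 53.3% at full depth), and the DN-like, ISP-like, unnamed and DPbla-like classes lay between 3.31% and 7.69%.

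Gimap7 and Gimap8 were detected in a minority of cells in every class. Gimap7, a small member that works as a dimer, was in 1.62% of DPre-like (0.7% to 3.16%; 2.63% at full depth), 7.58% of DPsel-like cells (4.96% to 11.0%; 10.0% at full depth), 10.4% of CD4sp-like (6.06% to 16.3%; 18.8% at full depth) and 19.6% of CD8sp-like cells (13.4% to 27.0%; 28.7% at full depth). The highest of its class shares was that of the CD8sp-like cells, and its interval overlapped that of the CD4sp-like cells. NCL-like cells, which carried Gimap4 and Gimap3 often, had Gimap7 in 0 of 30 cells at equal depth (exact upper limit 11.6%) and in 1 of 30 at full depth (3.33%). Gimap8, which carries several GTPase domains in 1 protein, was in 3.43% of DPre-like (2.01% to 5.44%; 5.05% at full depth), 9.70% of DPsel-like cells (6.73% to 13.4%; 15.2% at full depth), 13.6% of CD4sp-like (8.64% to 20.1%; 19.5% at full depth) and 12.6% of CD8sp-like cells (7.63% to 19.2%; 19.6% at full depth). Its intervals in these last 3 classes overlapped one another and lay above the DPre-like one. The DPre-like shares of Gimap3, Gimap4, Gimap5, Gimap7 and Gimap8 are all under the 10.1% that Cd74 had in the same cells and were not read as expression. Cd74 was at 13.9% in DPsel-like cells (10.4% to 18.2%), 17.5% in the CD4sp-like class (11.9% to 24.5%) and 12.6% in the CD8sp-like class (7.63% to 19.2%) at equal depth. In the DN-like, ISP-like, unnamed and DPbla-like cells, where Cd74 was at 16.7% (9.18% to 26.8%), 5.45%, 9.93% and 7.99%, none of these 5 members was above it. Cd74 was at 24.3% in agonist-selected-like cells (15.1% to 35.7%) and 6.67% in NCL-like cells (0.818% to 22.1%). In agonist-selected-like cells Gimap7 and Gimap8 (both 10.8%) were not above it, the intervals of the other members except Gimap6 (62.2%, 50.1% to 73.2%) overlapped that of Cd74, and in NCL-like cells Gimap7 and Gimap8 were not above it. In the later stages, not above Cd74 were Gimap3, Gimap7 and Gimap8 in DPsel-like cells, Gimap5, Gimap7 and Gimap8 in CD4sp-like cells and Gimap8 in CD8sp-like cells. Above it, but with an interval that overlapped that of Cd74, were Gimap5 in DPsel-like cells and Gimap3, Gimap5 and Gimap7 in CD8sp-like cells. The same held for Gimap9 in CD4sp-like cells (17.5% to 31.6%). The part of free RNA in these shares was not tested, and the shares that were not above Cd74 are given as values and were not read as expression. Cd74 took 11.3 steps per APC-like cell at equal depth, and the free RNA of a gene at another level can differ. A share above or below that of Cd74 therefore does not decide whether a Gimap gene was expressed.

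Gimap6, which has been linked to autophagy, was common before selection and more common after it. At equal depth it was in 39.0% of DPre-like cells (34.7% to 43.4%; 58.6% at full depth) and 60.0% of DPsel-like cells (54.5% to 65.3%; 71.5% at full depth). The shares of 59.7% in CD4sp-like (51.5% to 67.6%; 81.8% at full depth) and 51.0% in CD8sp-like cells (42.6% to 59.5%; 76.9% at full depth) were not above that of the DPsel-like cells. The CD8sp-like interval of Gimap6 overlapped the DPre-like one slightly. Cycling and early cells had it less often than DPre-like cells, with 15.7% of DPbla-like, 10.9% of ISP-like, 17.2% of unnamed and 17.9% of DN-like cells at equal depth, the last about level with the 16.7% of Cd74. At full depth these classes stood at 48.2%, 59.4%, 44.4% and 43.6%, so that the gap to the DPre-like cells was narrower or, for ISP-like cells, absent without thinning.

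Gimap1 and Gimap9 followed another course. Gimap1 was in 42.3% of DN-like cells at equal depth (31.2% to 54.0%; 80.8% at full depth), in 15.2% of ISP-like cells (10.1% to 21.5%; 64.2% at full depth) and in 16.6% of DPbla-like cells (12.8% to 21.0%; 51.5% at full depth). It was back at 42.6% in DPre-like cells (38.2% to 47.1%; 60.0% at full depth) and stood at 41.8% in DPsel-like cells, at 50.6% in the CD4sp-like class and at 46.9% in the CD8sp-like class (59.7%, 68.2% and 66.4% at full depth). Those 4 intervals overlapped, and the NCL-like share of 73.3% (54.1% to 87.7%; 83.3% at full depth) was the highest, with an interval that overlapped those of both SP-like classes. The share of ISP-like cells depended on the depth correction, since these cells were the deepest of the library. Gimap9 was in 8.97% of DN-like (3.68% to 17.6%; 35.9% at full depth), under the 16.7% of Cd74 there, in 19.2% of DPbla-like (15.2% to 23.8%; 56.8% at full depth) and in 31.5% of DPre-like cells (27.4% to 35.8%; 45.1% at full depth). It did not go up afterwards, with 31.5% in DPsel-like cells, 24.0% in the CD4sp-like class and 26.6% in the CD8sp-like class (46.7%, 40.3% and 46.2% at full depth), whose intervals overlapped that of the DPre-like cells.

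The DPsel-like class joined a pair of clusters, in which Gimap4 differed most. In the DPsel-like cluster with Itm2a and Bcl2 among its 5 leading genes (167 cells) Gimap4 was in 43.7% of cells at equal depth (36.1% to 51.6%; 55.7% at full depth). In the DPsel-like cluster led by Tmsb10, Cd28 and Ikzf2 (163 cells) it was in 3.68% (1.36% to 7.84%; 6.75% at full depth), as low as in DPre-like cells. Cd74 was at 14.4% in the former cluster (9.43% to 20.6%) and 13.5% in the latter (8.66% to 19.7%) at equal depth, so that Gimap4 was above it in the former alone. Gimap3 stood at 12.6% (7.96% to 18.6%; 19.2% at full depth) and 3.68% (1.36% to 7.84%; 4.91% at full depth), not above Cd74 in either cluster. Gimap5 stood at 13.8% in the Itm2a and Bcl2 cluster (8.94% to 19.9%; 24.6% at full depth) and 19.6% in the Cd28 and Ikzf2 cluster (13.8% to 26.6%; 31.3% at full depth). Both intervals of Gimap5 overlapped those of Cd74. In the same order, Gimap6 stood at 66.5% and 53.4% at equal depth (76.0% and 66.9% at full depth) and Gimap1 at 34.1% and 49.7% (53.3% and 66.3%). Gimap9 stood at 32.9% and 30.1% (44.3% and 49.1%), Gimap7 at 10.8% and 4.29% (14.4% and 5.52%) and Gimap8 at 9.58% and 9.82% (15.0% and 15.3%).

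**Figure D2:**
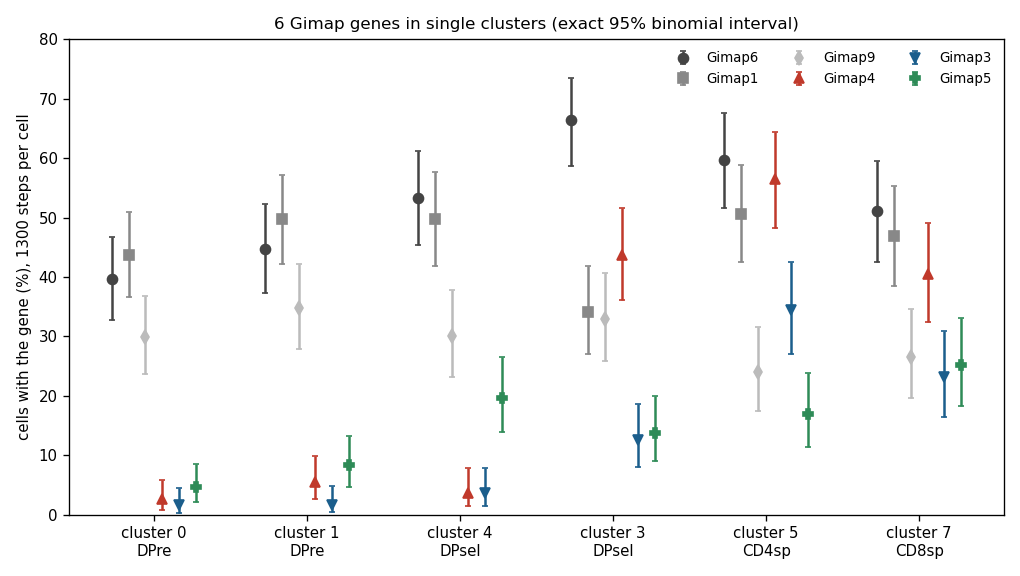
Share of cells (%) with 6 Gimap genes at 1300 steps per cell in 6 single clusters (2 of DPre-like cells, 2 DPsel-like, 1 CD4sp-like, 1 CD8sp-like), with the exact 95% binomial interval. Gimap4 was at 3.68% in cluster 4 and 43.7% in cluster 3, both DPsel-like, while Gimap5 was at 19.6% and 13.8%.

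Cells picked by marker transcripts instead of clusters gave the same order for Gimap4. Of 626 cells with Rag1, without Ccr7 and Mki67, 8.31% had Gimap4 at equal depth (6.27% to 10.8%; 12.1% at full depth). Of 177 cells with Itm2a but without Rag1, Ccr7 and Mki67, 32.8% had it (25.9% to 40.2%; 44.1% at full depth), and of 220 cells with Ccr7, which guides cells to the medulla, and without Rag1, 41.8% had it (35.2% to 48.6%; 62.3% at full depth). The first of these intervals lay below the others, which overlapped. Gimap3 stood at 5.75%, 11.3% and 26.8% in these cells, Gimap6 at 35.1%, 56.5% and 57.7%, and Gimap9 at 27.8%, 27.7% and 26.8%. Among SP-like cells, those with the exit receptor S1pr1 (115 cells) and those without it (182 cells) had overlapping intervals for each of the 8 members at equal depth. For Gimap3 the shares were 34.8% (26.1% to 44.2%) and 25.3% (19.1% to 32.2%), and for Gimap4 44.3% (35.1% to 53.9%) and 51.6% (44.1% to 59.1%).

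On the deposited log2 scale, 4 of 8 members were higher in SP-like than in DPre-like cells by the size used for calls, a difference of at least 0.25 in the mean log2 value. The background for that call was 2.78% of 8746 genes, with another 2.14% lower by as much. Gimap3, Gimap4, Gimap5, Gimap7 and Gimap8 had DPre-like means from 0.02 to 0.09, so they could not be lower by 0.25. Gimap1, Gimap6 and Gimap9 could be, and were not. Gimap4 had a difference of 0.99, rank 24 of the 8746 genes from the top, and 0.59 after thinning. Gimap3 differed by 0.52 (rank 86; 0.33 after thinning), Gimap6 by 0.52 (rank 87; 0.27 after thinning) and Gimap5 by 0.29 (rank 210; 0.17 after thinning). The differences of Gimap7 (0.22), Gimap1 (0.15) and Gimap8 (0.14) were under the call size. Gimap9 had -0.07, rank 7937. The median over the 8 members was 0.25, against -0.00 over all genes. With depth equalized, Gimap5 was no longer past the size used for calls.

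Between DPre-like and DPsel-like cells, 1.81% of all genes were lower by the same size. Gimap1, Gimap6 and Gimap9, the only members with DPre-like means that allowed such a fall, were not. Higher by that size were 2 of 8 members, against 1.73% of all genes. They were Gimap6 with a difference of 0.53 (rank 35) and Gimap4 with 0.45 (rank 53). Gimap5 (0.19), Gimap3 (0.12), Gimap8 (0.10), Gimap7 (0.07) and Gimap9 (0.07) followed, the last with -0.01 after thinning, and Gimap1 had -0.02. For Gimap6 the difference from DPre-like cells was thus about as large in DPsel-like as in SP-like cells, while for Gimap3 it was mostly that of the SP-like cells. Both comparisons share the DPre-like cells. Between CD8sp-like and CD4sp-like cells, Gimap4 was lower in CD8sp-like cells by 0.27 in the mean log2 value and Gimap3 by 0.12, and the differences of Gimap5 and Gimap7 were 0.16 and 0.10 in the other direction.

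**Figure D3:**
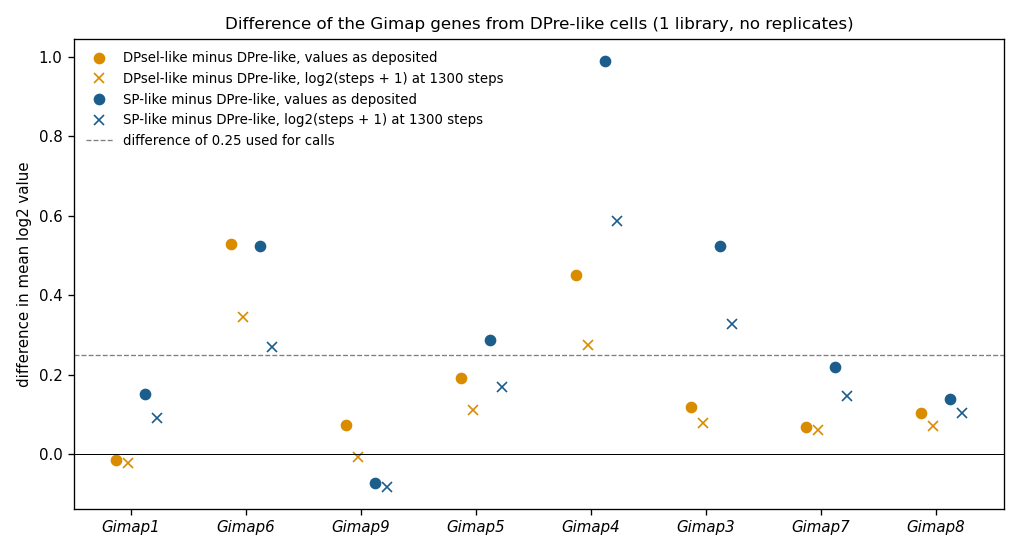
Difference in mean log2 value of each Gimap gene from DPre-like cells, for DPsel-like and SP-like cells, with values as deposited (circles) and after thinning to 1300 steps (crosses). Gimap4 had the largest difference in SP-like cells, 0.99 as deposited and 0.59 after thinning, and Gimap9 was below 0 in SP-like cells in both.

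More members were detected per cell in DPsel-like, SP-like and NCL-like cells than in DPre-like cells. This count restates the shares given above, also those not read as expression, and was not compared with other sets of genes. At equal depth a DPre-like cell held on average 1.3 of the 8 members (SD 0.98), a DPsel-like cell 1.99 (SD 1.19), a CD4sp-like cell 2.66 (SD 1.43), a CD8sp-like cell 2.45 (SD 1.46) and an NCL-like cell 3.37 (SD 1.33). DPbla-like and ISP-like cells held 0.60 and 0.49. At least 4 members were seen in 1.62% of DPre-like cells, 24.2% of SP-like cells and 53.3% of NCL-like cells. No member was seen in 22.6% of DPre-like, 9.39% of DPsel-like and 7.07% of SP-like cells.

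Over the 17 cluster means, the members differed in how alike their patterns were, and these correlations share 1 library and its differences in depth and are given as a description. Gimap3 and Gimap4 had a Pearson r of 0.95, Gimap6 and Gimap8 0.94, and Gimap3 and Gimap5 0.91, while Gimap7 and Gimap9 had -0.01. Of 7454 other genes, the ones most like the mean of the 8 members over the 17 clusters were Irf2bpl and Jak1, a kinase of cytokine receptors (both 0.96), followed by Vps37b (0.96), Shisa5 (0.95) and Ier2 (0.95), with Il2rg, the chain that several of these receptors share, at 0.94. Over the 15 clusters without the NCL-like and APC-like ones, Trim26 (0.97) and Cd52 (0.97) led instead. For Gimap4 alone, over all 17 clusters, they were Fam102a and Irf2bpl (both 0.97), for Gimap5 Jak1 (0.95), for Gimap6 Fam53b (0.96), for Gimap8 Tmsb10 (0.96), for Gimap1 Zdhhc20 (0.93), for Gimap7 Tmem173 (0.89) and for Gimap9 Tnk2 (0.90).

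Other genes of survival and maturation give the setting. In a list of maturation and survival genes, 10 of 11 were higher in SP-like than in DPre-like cells by the call size, among them Klf2 with a difference of 1.62, S1pr1 with 0.57, Ccr7 with 0.69 and Il7r, the receptor of the survival cytokine IL-7, with 0.33. S1pr1 and Ccr7 were among the markers that named the SP-like classes, and genes of this list could enter the clustering, so these values describe the classes and are no finding about them. Of 12 BCL-2 family genes, 1 was higher, the survival factor Bcl2 with 1.31, and 1 was lower, Bcl2l1 with -0.36, which encodes the survival protein of double-positive cells. Of 12 other GTPases or their regulators, Rac2 (0.47), Rap1a (0.29), Rap1b (0.31) and Arhgdib (0.53) were higher and Rhoh (-0.33) was lower. Of the genes within 500 kb of the cluster that are not Gimap genes, 10 of 22 were in the table. None reached the call size in either direction, with differences from -0.09 for Tra2a to 0.05 for Zfp467. Their DPre-like means ran from 0.007 (Repin1) to 0.151 (Malsu1), with Tra2a at 0.358, so only Tra2a could be lower by the call size.

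For the open chromatin, the sorts were first set against their labels. The sorts were 478264 to 1108749 counts deep, and some of their markers went against their labels. The start of Rag1, the recombinase of DP cells, took 0.836 per 10000 counts in DP sorted cells, 0.384 in CD8 sorted cells and 0.198 in DN sorted cells, and had 0 counts in CD4 sorted cells, and Il2ra, a marker of DN cells, took 0.144 in the DN and 0.202 in the CD8 sort. The Cd4 start had 1 count in the CD4 sort (0.018 per 10000), against 3 in the CD8 sort (0.061) and 12 in the DP sort (0.251), so the gene of its own label did not mark the CD4 sort either. The part of these departures in the Gimap values was not tested. For the whole cluster, the peak groups and some of the starts, ratios are given for the CD4 sort alone beside those for both SP sorts. Sums over a sort cannot tell more cells with an open site from more reads per open cell.

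The chromatin over the Gimap cluster was more open in SP than in DP sorted cells. The 88 peaks together took 5.90 per 10000 counts in peaks in DN sorted cells (5.46 to 6.37), 7.05 in DP (6.31 to 7.84), 12.5 in CD4 (11.6 to 13.4) and 10.4 in CD8 sorted cells (9.55 to 11.4), and 5.14 in total thymocytes (4.96 to 5.32). The CD4 and CD8 intervals lay above that of the DP sort, and the DN and DP intervals overlapped slightly. CD4 and CD8 sorted cells together stood at 1.63 times the DP level (1.45 to 1.85), CD4 sorted cells alone at 1.77 times (1.55 to 2.02) and CD8 sorted cells at 1.48 times (1.29 to 1.70), and DP at 1.19 times the DN level (1.04 to 1.36). The 96 peaks within 500 kb on either side of the cluster had an SP to DP ratio of 0.64 (0.58 to 0.71), which moved with the series that the numbers in the cell labels form. It was 0.66 (0.58 to 0.75) within series 4 and 0.26 (0.21 to 0.32) within series 31, and the DP level of these peaks was 13.7 per 10000 in series 4, 39.6 in series 31 and 6.23 in series 3, which holds only DP sorted cells. Within the cluster the ratio was 2.34 (1.77 to 3.13) for 31 peaks centered in a Gimap gene, 1.71 (1.41 to 2.09) for 42 peaks between genes and 1.26 (1.04 to 1.53) for 15 peaks centered within 500 bp of a start. With the CD4 sort alone these ratios were 2.57 (1.91 to 3.49), 1.88 (1.53 to 2.32) and 1.32 (1.07 to 1.64). Neighboring peaks can hold the same reads, which makes the intervals of these sums too narrow, and with 19 peaks that do not overlap the ratio was 1.37 (1.13 to 1.66).

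The cells also fell into series by the number in their labels. Over the whole cluster, the SP to DP ratio was 1.57 (1.35 to 1.82) within label series 4 and 2.95 (1.71 to 5.44) within label series 31, where the DP sort had 15 counts in the cluster. The DP to DN ratio was 1.13 (0.91 to 1.40) within series 4 and 0.61 (0.31 to 1.14) within series 31, so that within each series the DP to DN interval included 1. The SP to DP ratio within series 4 was 2.43 (1.72 to 3.51) for the peaks in a Gimap gene, 1.59 (1.26 to 2.02) for those between genes and 1.19 (0.94 to 1.52) for those at a start. Within series 31 it was 3.33 (0.79 to 29.7), 2.35 (1.1 to 5.7) and 3.76 (1.5 to 12.1), with 2, 8 and 5 counts in the DP sort. The higher level at the starts was thus within counting error in series 4, which held most of the counts. After thinning to 1000 counts per cell, 38.9% of DN (31.6% to 46.5%), 44.0% of DP (34.8% to 53.5%), 56.2% of CD4 (45.7% to 66.4%) and 53.8% of CD8 sorted cells (43.1% to 64.4%) had a count in the cluster, with overlapping intervals between DP and each of the CD4 and CD8 sorts.

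**Figure D4:**
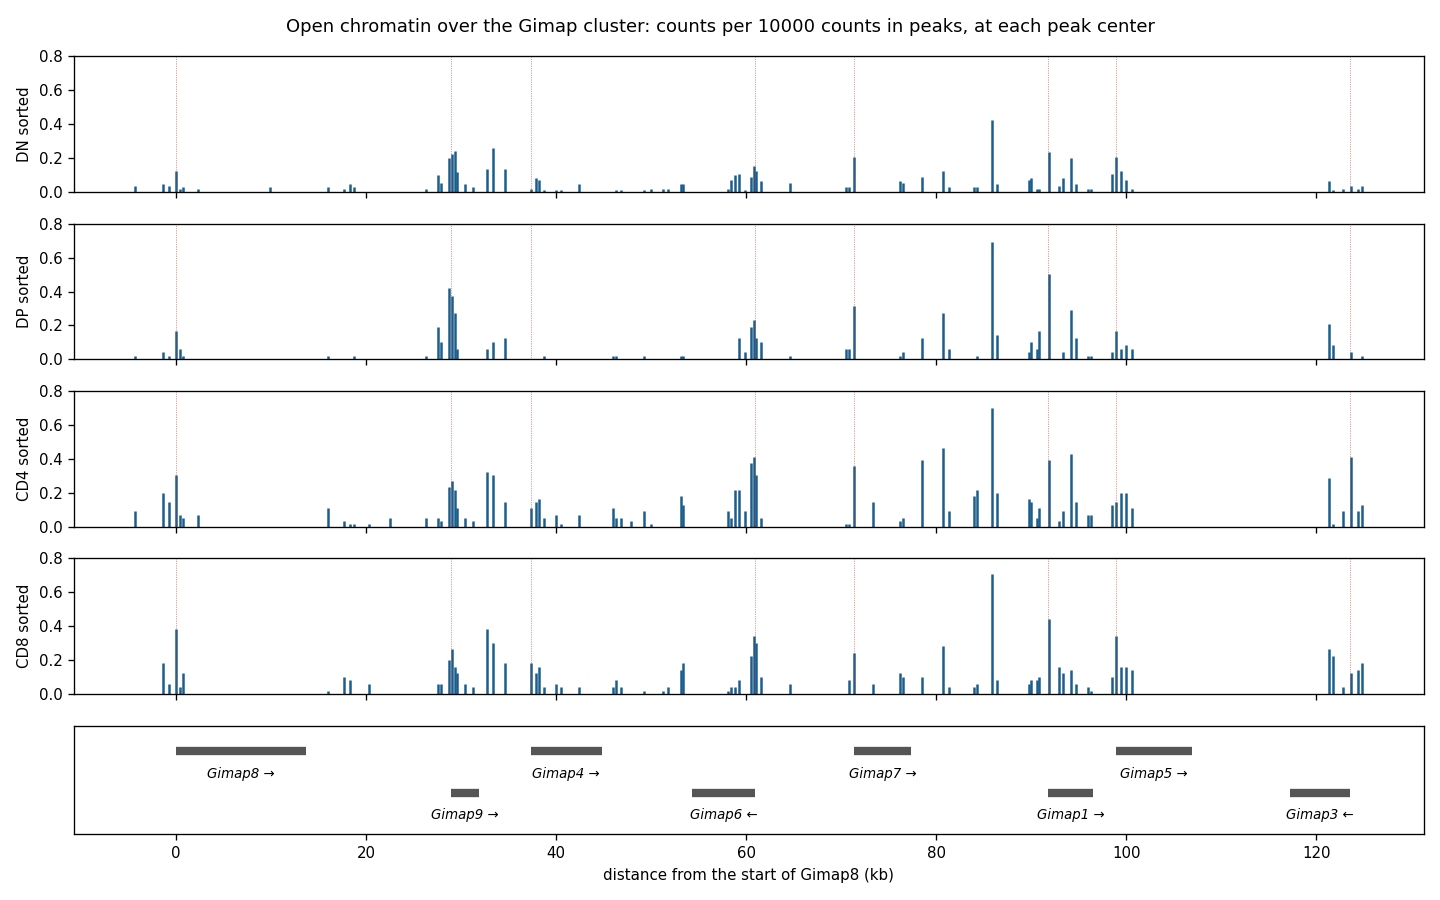
Counts per 10000 counts in peaks at the center of each of the 88 peaks, by sort, against the distance from the start of Gimap8 (kb), with the genes and their direction below and dotted lines at the starts. The peak at the start of Gimap3 reached 0.412 in CD4 sorted cells and 0.042 in DP sorted cells, and the highest peak, upstream of Gimap1, was at 0.690 to 0.708 in the DP, CD4 and CD8 sorts.

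At the starts, Gimap4 and Gimap3, each with 1 peak, had more counts in SP than in DP sorted cells beyond counting error when all cells of a sort were summed. Within either label series this did not hold for both SP sorts together. The Gimap4 start had 0 counts in DP sorted cells, with an exact upper limit of 0.0771 per 10000, 2 counts in DN, 6 in CD4 (0.108 per 10000) and 9 in CD8 sorted cells (0.182 per 10000). The exact lower limit of the SP to DP ratio was 1.63. The Gimap3 start took 0.036 per 10000 in DN (4 counts), 0.042 in DP (2 counts), 0.412 in CD4 (23 counts) and 0.121 in CD8 sorted cells (6 counts). Its SP to DP ratio was 6.59 (1.67 to 57.0), or 9.86 (2.43 to 86.2) with the CD4 sort alone, and CD4 sorted cells were at 3.40 times the CD8 level (1.35 to 10.2). Within label series 4, SP and DP sorted cells had 22 and 2 counts at the Gimap3 start, a ratio of 3.33 (0.82 to 29.2), and 12 and 0 counts at the Gimap4 start, with an exact lower limit of 0.84. Within series 31 they had 7 and 0 counts at Gimap3 and 3 and 0 at Gimap4, with lower limits of 0.56 and 0.16. With single sorts, series 4 gave a CD4 to DP ratio of 5.51 (1.32 to 49.0) and a CD8 to DP ratio of 1.19 (0.17 to 13.2) at Gimap3. At Gimap4 the lower limit in series 4 was 0.25 for the CD4 sort and 1.18 for the CD8 sort. At Gimap3 within series 4 the CD4 sort stood at 0.398 (18 counts) and the CD8 sort at 0.086 (4 counts), and within series 31 the order was turned, at 0.471 (5 counts) and 0.637 (2 counts). The starts of Gimap6, Gimap5 and Gimap9 are sums over 3 overlapping peaks each, which can hold the same reads, so the intervals of these sums are too narrow, and each of their single peaks had an SP to DP interval that included 1. The Gimap6 start took 0.370 in DN, 0.544 in DP, 1.09 in CD4 and 0.869 in CD8 sorted cells, with an SP to DP ratio of 1.82 (1.17 to 2.91), or 2.01 (1.25 to 3.32) with the CD4 sort alone. The Gimap5 start took 0.442, 0.272, 0.466 and 0.606 in the same order, with a ratio of 1.96 (1.06 to 3.90), or 1.71 (0.85 to 3.63) with the CD4 sort alone. Within series 4 the sum had a ratio of 1.46 (0.87 to 2.58) at Gimap6 and 3.33 (1.34 to 10.6) at Gimap5. Within series 31 SP and DP sorted cells had 17 and 0 counts at Gimap6, all 17 in the CD4 sort, with a lower limit of 1.62, and 1 and 0 at Gimap5. The single peaks had ratios from 1.62 to 2.42 at Gimap6 and from 1.42 to 2.88 at Gimap5.

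The remaining starts were not higher in SP than in DP sorted cells beyond counting error. The Gimap8 start had an SP to DP ratio of 1.73 (0.88 to 3.74), Gimap7 0.97 (0.51 to 1.93) and Gimap1 0.83 (0.50 to 1.43), all with intervals that include 1. The summed Gimap9 start took 0.667 per 10000 in DN, 1.07 in DP, 0.717 in CD4 and 0.627 in CD8 sorted cells, with an SP to DP ratio of 0.63 (0.44 to 0.92), or 0.67 (0.43 to 1.04) with the CD4 sort alone and 0.66 (0.42 to 1.06) within series 4. Within series 31 the order was turned, with 8 counts in SP, 0 in DP and 7 in DN sorted cells, and within series 4 the DP level (1.05) was below the DN level (1.11). Its single peaks had ratios of 0.52 (0.27 to 1.00), 0.71 (0.38 to 1.36) and 0.70 (0.33 to 1.53). The Gimap1 start took 0.234 in DN and 0.502 in DP sorted cells, and the DP to DN ratio was 2.14 (1.18 to 3.88), with 16 and 1 counts within series 4 and 2 and 2 within series 31.

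**Figure D5:**
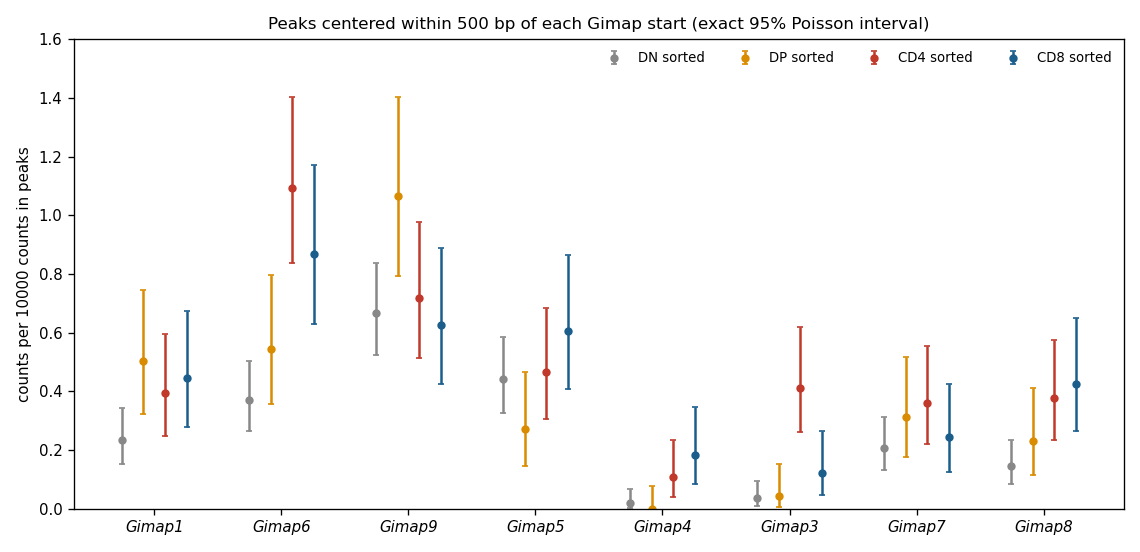
Counts per 10000 counts in peaks, summed over peaks centered within 500 bp of each Gimap start, in the DN, DP, CD4 and CD8 sorts, with the exact 95% Poisson interval. Gimap3 and Gimap4 were near 0 in DN and DP sorted cells, and Gimap9 was at 1.07 in DP sorted cells with all label series summed.

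Of the 88 peaks, 15 had at least 50 counts in the sorted cells. In SP sorted cells, 6 of these 15 were at least 1.5 times as high as in DP sorted cells, against 21.6% of 12058 such peaks of the table, and 1 of 15, at the start of Gimap9, was lower by as much, against 20.4%. Against the DP sort, 7 of 15 were higher by that factor in the CD4 sort (23.1% of all such peaks) and 5 of 15 in the CD8 sort (21.5% of all such peaks). The DP sort was higher than the DN sort at 8 of 15 (23.8% of all such peaks), and the DN sort was higher at 2 of 15 (18.3% of all such peaks). The median SP to DP ratio was 1.40 over the 15 peaks and 0.98 over all 12058. Of the 6 peaks higher in SP, 3 were centered within 500 bp of the Gimap6 start and overlap one another, 1 was at the Gimap8 start, and 2 lay between Gimap9 and Gimap4.

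This pair of peaks between Gimap9 and Gimap4 had the largest ratios of the 15. The one centered at chr6:48679927 took 0.135 per 10000 counts in DN, 0.0627 in DP (3 counts), 0.323 in CD4 and 0.384 in CD8 sorted cells, with an SP to DP ratio of 5.60 (1.77 to 28.4). The one centered at chr6:48680642, 3907 bp upstream of the Gimap4 start and printed above with its TGTGGT matches, took 0.262 in DN, 0.105 in DP (5 counts), 0.305 in CD4 and 0.303 in CD8 sorted cells, with a ratio of 2.91 (1.12 to 9.56). With all label series summed, both were lowest in the DP sort among the 4 sorts, and both were low in total thymocytes, at 0.0422 and 0.0750. Within series 4 their SP to DP ratios were 10.6 (1.78 to 429.7) and 4.08 (1.03 to 35.4), and within series 31 the DP sort had 1 count at each, with ratios of 0.78 (0.041 to 46.2) and 1.96 (0.22 to 92.6). The centers are so close that part of their counts may be the same reads. The highest peak, centered at chr6:48733081 and 5973 bp upstream of the Gimap1 start, took 0.424 in DN, 0.690 in DP, 0.699 in CD4 and 0.708 in CD8 sorted cells, with an SP to DP ratio of 1.02 (0.67 to 1.59). The 73 peaks of the window with fewer than 50 counts had a summed SP to DP ratio of 2.27 against 1.05 for all such peaks.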

How the data were processed

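Thymocyte transcriptomes (1 library) and single-cell ATAC-seq of sorted and total thymocytes were analysed. The RNA table holds log2 values of 8846 genes in 1993 cells, for which the authors filtered cells and genes, quantile normalized them and took log2; the submitters' processing notes name Cell Ranger 1.3.1 and the builds GRCm38.p5 and hg38. The ATAC table holds deposited counts per cell and peak, for which the authors trimmed adapters, mapped with Bowtie2, removed duplicates with Picard and called peaks with MACS2 on merged cells. Its build was taken as GRCm38, since 10.6% of peak centers lay within 500 bp of a protein-coding start and 1.67% after a shift by 20000 bp. Peaks are listed as 4000 bp wide, the width counted over is not given in the sources used here, and centers were used as positions. Cells were grouped by their labels; 362 columns of cells were not used, as their names could not be tied to 1 group by the rule applied, or no group was stated.

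Cells were clustered without the Gimap genes (Seurat 5.3.0 in R 4.3.3, 20 components, 30 neighbors, resolution 2) and named by the markers with the highest mean score, with a margin of at least 0.15 that was set after the clusters were seen. Doublets were not called. All other values were computed in Python 3.11.15 with scipy 1.17.1. The call of genes by mean difference and the ratio intervals were tested on simulated data, and thinning was checked on the deposited values. The other steps had no such test. Genes in at least 1% of cells were compared, and a mean log2 difference of at least 0.25 counted as higher or lower. Peaks with at least 50 counts in sorted cells and a ratio of at least 1.5 counted as more open. Genes other than members were named as the ones most like them over cluster means, or from fixed lists. With 1 sample per group no replicate test was made. The members and lists were chosen with earlier results of these data known. The alternatives were thinning, another detection threshold, other clusterings, marker gates, leaving out the cells with the most genes, other peak sets and filters, and label series.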

Additional observations from a re-analysis of the deposited data

Results flagged for a closer look

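A further transcript of the cluster lay outside the comparisons. Gimap1os, an antisense RNA that overlaps Gimap1 (chr6:48738346-48741444, minus strand), was detected in 15.0% of all 1993 cells (299 cells), a signal in a row that is not a member. At equal depth it was in 7.47% of DPre-like cells (5.32% to 10.2%; 11.7% at full depth), 17.6% of DPsel-like cells (13.6% to 22.1%; 24.2% at full depth), 14.9% of CD4sp-like cells (9.71% to 21.6%; 21.4% at full depth) and 18.2% of CD8sp-like cells (12.2% to 25.5%; 30.1% at full depth). Cd74, the measure of free RNA, was at 10.1% in DPre-like (7.59% to 13.1%), 13.9% in DPsel-like (10.4% to 18.2%), 17.5% in CD4sp-like (11.9% to 24.5%) and 12.6% in CD8sp-like cells (7.63% to 19.2%), and its interval overlapped that of Gimap1os in each of these classes. The shares of Gimap1os are therefore given as values only. Where the annotations overlap, the part of each gene in the reads of the other was not tested. Groups of 4 to 10 samples, in which a sample far from the others could be sought, did not occur.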

How the results depend on the processing

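No paired analysis was possible because the replicate numbers name single cells and each sort was taken as 1 sample, and the match that could be made, by label series, gave ratios with no test over samples. The number of Gimap genes with an SP-like interval above the DPre-like one was 6 with thinned cells, with values above 1 only, with the Gimap genes among the clustering genes, with 20 neighbors and without the 5% of cells with the most genes, while 6.14% to 13.0% of all genes met the criterion in these settings and as reported. The number higher in mean log2 by 0.25 was 3 after thinning (1.45% of all genes) and with marker gates (1.83%), and 4 otherwise (2.74% to 2.84%). Resolution 1 gave no CD4sp-like or CD8sp-like class and so no value. Of all genes, 243 were higher in SP-like cells with and without the detection filter, and 95 at a difference of at least 0.5. The SP to DP ratio of the cluster was 1.63 as reported, 1.37 with peaks that do not overlap, 1.26 with centers within 500 bp of a start (an alternative chosen after seeing the data), 1.25 as a ratio of shares of thinned cells and 2.95 within label series 31. The DP to DN ratio of 1.19 was 1.40 with centers within 500 bp of a start and reversed to 0.61 within series 31, where the cause was not tested. Peaks more open in SP than in DP sorted cells made up 21.6% of the peaks tested as reported (2606 peaks), 7.24% with at least 200 counts, where fewer peaks were tested (53 peaks higher), and 11.7% at a ratio of at least 2. Of the Gimap peaks, the 6 of 15 that were higher became 4 of 15 at a ratio of at least 2, and 0 Gimap peaks had 200 counts. Chosen after seeing the data, the ratios of single starts, peak groups and peaks were also taken within each series, where the peak centered at chr6:48679927 went from 5.60 to 0.78 in series 31 (2 and 1 counts), and the cause was not tested. Depth limits the start peaks of Gimap3 and Gimap4, which had at most 2 counts in DP sorted cells.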
